A study of Homo sapiens with 20 samples.

Results

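Newly made and total RNA of MAP2, CAPG, BMPR2, DHRS2, TPMT and AASS, 6 of the 19593 genes counted in MM1.S multiple myeloma cells, was followed after treatment with the CBP/p300 degrader dCBP-30. These 6 genes were chosen because their labelled or total reads were raised under dCBP-30, so their levels under dCBP-30 against the vehicle DMSO are given as a description, without a test. MM1.S is an established myeloma cell line, labelled as wild type here, and received either 10 nM dCBP-30 or DMSO; cells were taken after 2, 6 or 24 h, with 3 libraries in each of the 6 groups. All of these 18 libraries carried 4-thiouridine (4sU), added for the last hour before harvest; 2 more libraries of the same line had no 4sU, and their labels give neither a treatment nor a time. The labels do not say whether the replicates of a group came from separate cultures, so p-values measure only the spread between these libraries, which may be technical.

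In SLAM-seq, incorporated 4sU is alkylated and then sequenced as C where the gene has T. Reads that carry such a change, called T>C reads, come from RNA transcribed in the labelling hour, while total reads hold old and new RNA together. CBP and p300 are paired acetyltransferases that deposit acetyl marks on histones at enhancers and promoters and act as coactivators of many transcription factors, and in myeloma they sustain the genes of the plasma cell state. dCBP-30 joins a bromodomain ligand to a cereblon ligand, which brings a ubiquitin ligase to both proteins. The 6 genes have unrelated products: a pair of cytoskeletal proteins, a growth factor receptor and 3 metabolic enzymes.

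Each library held between 12439676 and 18727380 reads on genes, and T>C reads made up 4.98% to 8.31% of them in the 6 labelled groups, against 0.801% without 4sU. A T>C read carried on average 1.47 conversions under dCBP-30 at 24 h, 2.48 under DMSO at 24 h and between 2.17 and 2.24 in the other labelled groups; the part of this in the T>C values at 24 h was not tested. Levels are given in RPM, reads per 1000000 total reads of the library after TMM scaling. The scaling factors were 1.29 to 1.32 for dCBP-30 and 0.893 to 0.935 for DMSO at 24 h, and leaving them out raised every log2 fold change by 0.10 at 2 h, 0.32 at 6 h and 0.52 at 24 h. In bulk libraries scaled to their own reads, more RNA of a gene per cell, more cells that hold it and less of all other RNA cannot be told apart. All 9 plasma cell markers examined were high under DMSO, from 125 RPM for CD38 to 1521 RPM for MZB1, and total reads of all 9 fell at 24 h under dCBP-30, by 1.39 (SLAMF7) to 5.03 (TNFRSF17) on the log2 scale. CD3D, LYZ, RBFOX3 and SNAP25, defining markers of T cells, monocytes and neurons, had no read under DMSO. Among the markers of those cells and of fibroblasts only CD3E (4.57 RPM) and the neuronal SYT1 (12.2 RPM) exceeded 1.92 RPM, and at 24 h these rose by 1.29 and 1.52 on the log2 scale; the part of such shifts in the values of the 6 genes was not tested. The degrader acts on protein, so the RNA of its targets is no check of the labels; total reads of CREBBP and EP300 rose by 1.23 and 1.83 on the log2 scale at 24 h.

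The reads of each gene lay in the 3′ UTR of 1 transcript, given here with coordinates of GRCh38 that include the stop codon. For MAP2 this was chr2:209730395-209734147, for CAPG chr2:85394753-85394895, for BMPR2 chr2:202559700-202567751, for DHRS2 chr14:23645251-23645639 and for TPMT chr6:18128311-18130670. For AASS the counted transcript had a 3′ UTR in 11 exonic parts between 122073583 and 122098797 of chromosome 7, but a transcript with the single part chr7:122073583-122076491 held 26570 of its 27589 reads; the region overlaps RNU7-154P, on the opposite strand, by 62 bases. The CAPG region was the shortest, with 140 bases and 36 T positions, and its reads covered 16.3 T positions each, against 22.7 to 32.4 in the other 5 genes. A T>C share is therefore not comparable between CAPG and the others. TPMT had the most multimapping reads, 127 beside 4464 counted reads, against 0 to 67 for the other 5.

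The sequence just before the transcription start is shown for the 6 genes because they are compared by when they rose. Each line gives the 100 bases upstream of the RefSeq start (GRCh38.p14) nearest to the start of the counted transcript, 5′ to 3′. Capitals mark matches on either strand to the GC box GGGCGG, to CCAAT, to the TATA box, searched as TATAAA, to the core of the cAMP response element, TGACG, or to the 8-base forms that contain this core, TGACGTCA and TGACGTCC. The E-box CACGTG and the AP-1 site TGANTCA were searched too.

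MAP2, chr2:209579232-209579331, plus strand: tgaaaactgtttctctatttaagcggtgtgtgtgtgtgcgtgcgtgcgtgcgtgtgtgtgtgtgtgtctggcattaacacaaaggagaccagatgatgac
CAPG, chr2:85410367-85410466, minus strand: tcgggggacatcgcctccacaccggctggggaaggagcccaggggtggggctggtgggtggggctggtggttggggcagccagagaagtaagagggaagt
BMPR2, chr2:202376227-202376326, plus strand: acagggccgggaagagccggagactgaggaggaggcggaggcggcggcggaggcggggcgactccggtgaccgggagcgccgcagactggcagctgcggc
DHRS2, chr14:23630015-23630114, plus strand: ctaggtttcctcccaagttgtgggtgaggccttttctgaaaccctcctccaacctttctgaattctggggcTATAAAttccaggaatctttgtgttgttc
TPMT, chr6:18155078-18155177, minus strand: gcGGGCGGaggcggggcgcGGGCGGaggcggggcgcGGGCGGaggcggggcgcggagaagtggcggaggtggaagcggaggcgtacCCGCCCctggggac
AASS, chr7:122144250-122144349, minus strand: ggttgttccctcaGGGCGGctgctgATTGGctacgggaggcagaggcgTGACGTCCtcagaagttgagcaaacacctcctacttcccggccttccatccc

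The nearest RefSeq start lay at or within 5 bases of the start of the counted transcript for CAPG, TPMT and AASS. It was 1107 bases away for BMPR2, 6249 for DHRS2 and 155285 for MAP2. The windows of BMPR2, DHRS2 and MAP2 thus do not hold the start of the transcript counted and may not be its promoter. The whole windows, 250 bases before to 50 bases after the start, ranged in GC content from 40.0% for MAP2 and 44% for DHRS2 to 75.7% for TPMT and 76.7% for BMPR2, with 57.3% for AASS and 67.0% for CAPG; the windows of 2 other MAP2 starts had 52.3% and 45.3%, and the median of all 35116 RefSeq windows was 58.7%. The TATA box in the DHRS2 window was the only one in these 6 windows, and 11.5% of all windows hold one. TPMT held 6 GC boxes, BMPR2 3 and AASS 1, and 45.0% of all windows hold at least 1. The 8-base form TGACGTCC was found in the windows of AASS and TPMT and in 0.507% of all windows. It stands in the AASS stretch printed above, and how it was chosen for the search is not stated, so no enrichment is read from it. The full element TGACGTCA, found in 1.85% of all windows, was in none of the 6. A match in a window is a description of its letters.

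Over the 6 genes, total reads were first separated from DMSO at 6 h. A gene was called when its adjusted p was under 0.05 and its change over 2-fold, by the quasi-likelihood test of edgeR, with p-values adjusted (Benjamini-Hochberg) across every tested gene. Every dCBP-30 library was above every DMSO library in total reads for none of the 6 genes at 2 h, where 9.85% of all genes tested had this, and for all 6 at 6 and 24 h, against 23.7% and 34.5%. The same held in T>C reads for 1 gene at 2 h (11.6% of all), 5 at 6 h (8.57%) and 5 at 24 h (6.46%). In total reads none of the 6 genes passed these cutoffs upwards at 2 h, where 0.457% of 12267 genes did; 3 (MAP2, DHRS2 and TPMT) did at 6 h, against 7.47% of all genes, and 5 (all but TPMT) at 24 h, against 15.0%. In T>C reads 1 gene (TPMT) passed at 2 h, against 1.66% of 10083 genes, 4 (MAP2, BMPR2, DHRS2 and AASS) at 6 h, against 2.36%, and 3 (MAP2, CAPG and AASS) at 24 h, against 2.18%. Since the genes were chosen on these contrasts, nothing is read from these counts. All 6 passed the filters on low counts in both measures. AASS was just outside the cutoff in total reads at 6 h, with a log2 fold change of 0.99, and TPMT was the member nearest inside it, with 1.24.

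**Figure D1:**
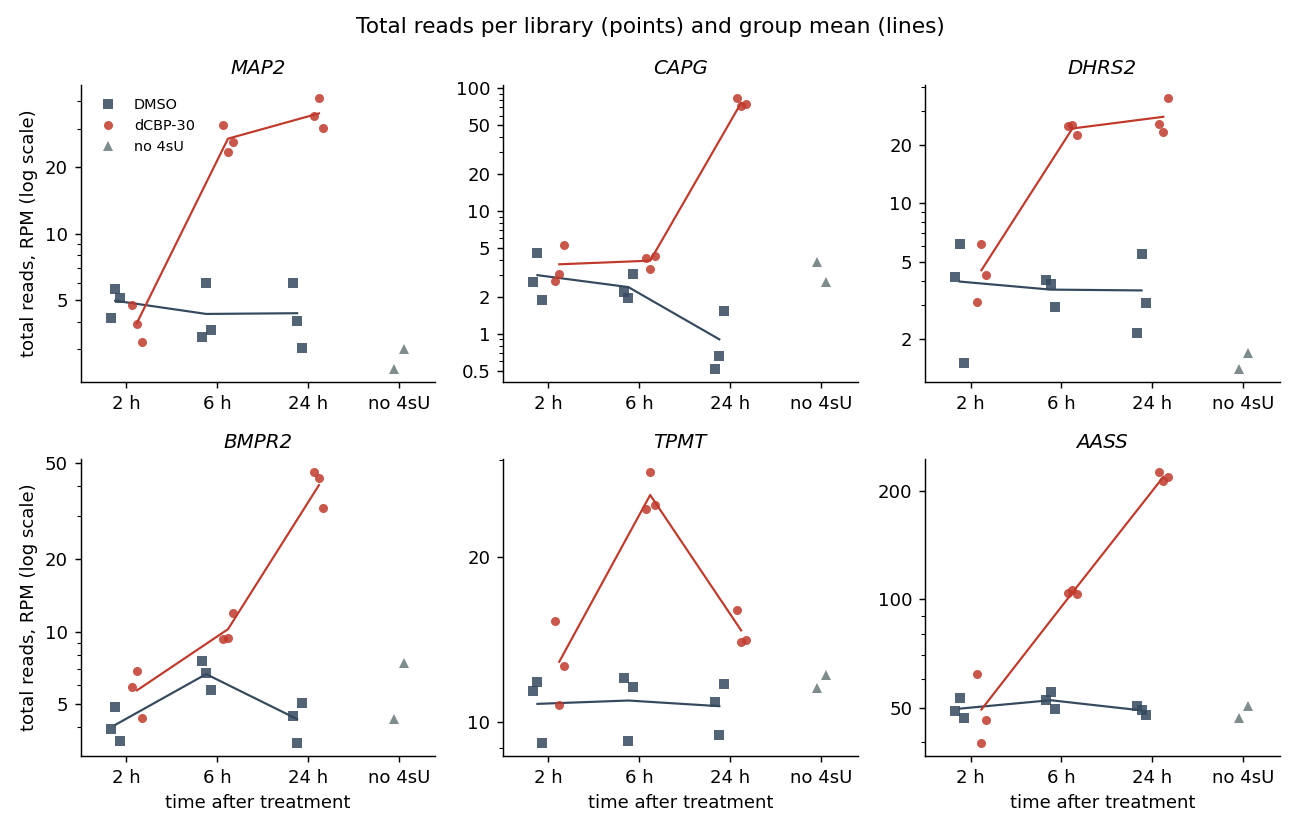
Total reads of the 6 genes in RPM (vertical axis, log scale) at 2, 6 and 24 h, with 1 point per library, lines through the means of 3 libraries and the 2 libraries without 4sU at the right. At 6 and 24 h every dCBP-30 library lies above every DMSO library of its time in all 6 panels, and under dCBP-30 only TPMT is lower at 24 h than at 6 h.

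MAP2 encodes a microtubule-associated protein best known from neuronal dendrites. Its total reads numbered 55, 59 and 52 under dCBP-30 and 54, 80 and 69 under DMSO at 2 h, and the groups overlapped. At 6 h they were 521, 425 and 427 against 48, 89 and 54, and at 24 h 623, 747 and 563 against 93, 68 and 42. Every dCBP-30 library at these later times was thus well above every DMSO library, with log2 fold changes of 2.63 (SE 0.25) and 2.998 (SE 0.26) after -0.34 (SE 0.27) at 2 h. In RPM the level went from 3.96 ± 0.747 (SD, n = 3) at 2 h to 35.1 ± 5.49 (SD, n = 3) at 24 h under dCBP-30, 8.86 times as high, while the DMSO means stayed between 4.34 and 4.98 RPM.

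New MAP2 RNA followed the same order. There was 1 T>C read in the 3 dCBP-30 libraries and 4 under DMSO at 2 h, the latter all in replicate 2. At 6 h the dCBP-30 libraries held 41, 10 and 54 T>C reads and at 24 h 86, 41 and 29, and no DMSO library of either time held any. Taken against 3 reads over the DMSO group, dCBP-30 was at least 30.03-fold higher at 6 h and at least 43.4-fold higher at 24 h. The dCBP-30 libraries differed widely among themselves, and replicate 1 alone held 55.1% of the T>C reads at 24 h.

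CAPG, an actin filament capping protein of the gelsolin superfamily found in macrophages and many other cells, rose late and, in total reads, by the most. Its total reads at 2 h were 31, 46 and 85 under dCBP-30 and 34, 64 and 25 under DMSO. They were 69, 61 and 70 against 31, 29 and 45 at 6 h, a log2 fold change of 0.71 (SE 0.32) with no overlap between the groups. At 24 h dCBP-30 held 1511, 1300 and 1387 reads and DMSO 8, 11 and 21. The log2 fold change was 6.43 (SE 0.35), or 87.6 times as many scaled reads over the pooled libraries, with a 95% exact counting interval from 64.2 to 122.8 that covers counting error only.

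Between 6 and 24 h under dCBP-30 the CAPG level went from 3.94 ± 0.484 to 76.2 ± 5.83 RPM (SD, n = 3 each), 19.4 times as high, while under DMSO it went from 2.40 ± 0.581 to 0.899 ± 0.545 RPM (SD, n = 3 each). T>C reads were absent from all 6 libraries at 2 h and overlapped at 6 h, with 2, 4 and 0 under dCBP-30 and 0, 1 and 8 under DMSO; without DMSO replicate 3 the log2 fold change at 6 h went from -0.78 to 1.55. At 24 h they were 41, 36 and 16 against none under DMSO, at least 25.9-fold higher. Of the CAPG reads at 24 h under dCBP-30, 2.22% carried a conversion (95% exact binomial interval 1.79% to 2.71%). By library the share was 2.71%, 2.77% and 1.15%, and replicate 3 held 10 conversions in its 16 T>C reads. Without 4sU the share was 0.801% over all genes, and none of 105 CAPG reads was a T>C read. The part of background in the CAPG T>C reads was not tested.

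BMPR2 is the type II receptor that binds bone morphogenetic proteins (BMPs) and phosphorylates the type I receptors, which then act on SMAD1, SMAD5 and SMAD9. Total BMPR2 reads were 68, 104 and 70 under dCBP-30 and 51, 69 and 47 under DMSO at 2 h, where the groups overlapped. At 6 h they were 155, 170 and 195 against 107, 100 and 84, a log2 fold change of 0.62 (SE 0.23), and at 24 h 834, 787 and 605 against 69, 58 and 70, a log2 fold change of 3.22 (SE 0.24). At both later times every dCBP-30 library was above every DMSO library, and the level under dCBP-30 rose 3.96 times between 6 and 24 h.

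BMPR2 alone among the 6 genes had a time at which its scaled T>C reads in all dCBP-30 libraries lay below those of all DMSO libraries, as 14.6% of genes tested did. At 2 h they numbered 1, 4 and 3 under dCBP-30 and 8, 4 and 9 under DMSO, or 0.362 times as many scaled reads (95% exact counting interval 0.139 to 0.85). At 6 h they were 18, 24 and 28 against none in the 3 DMSO libraries, at least 20.02-fold higher. At 24 h they were 71, 26 and 19 against 12, 7 and 4. In scaled reads the order of the groups thus turned between 2 and 6 h while total reads were not lower at any time. The order at 2 h rests on replicate 2, with 4 T>C reads in both groups, 0.264 RPM under dCBP-30 and 0.282 under DMSO. That dCBP-30 library had fewer reads on genes, 15754452 against 16249504, so without TMM factors the groups overlap. The log2 fold change at 24 h was 2.07 (SE 0.88), and 1.29 without dCBP-30 replicate 1. In the dCBP-30 libraries at 24 h the BMPR2 T>C reads carried 1.09 conversions each, against 2.13 under DMSO. Over all genes this number was 1.47 in the same dCBP-30 group and 0.924 without 4sU. Replicate 1, with 61.2% of the BMPR2 T>C reads of the group, had 71 conversions in 71 reads. The part of background in these reads was not tested.

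**Figure D2:**
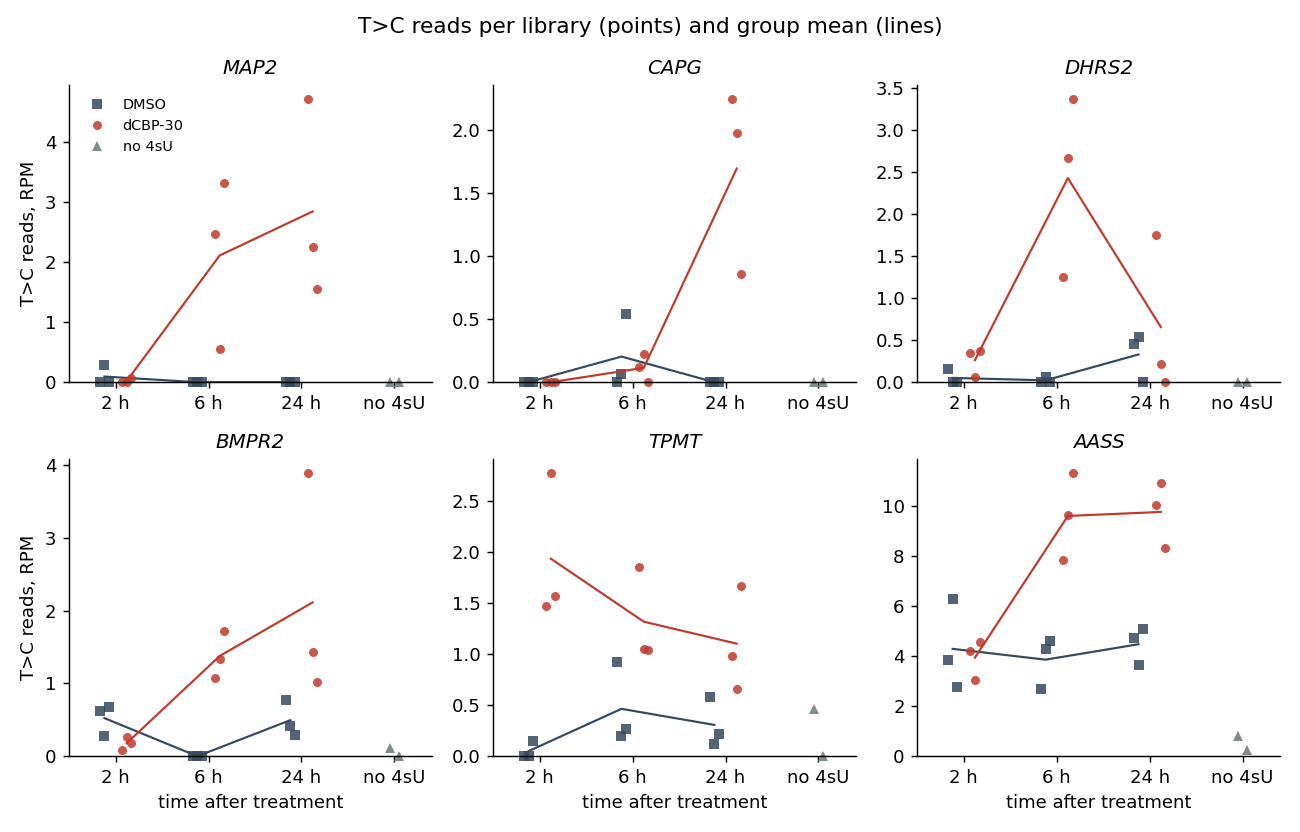
T>C reads of the 6 genes in RPM (vertical axis, linear from 0), with points, lines and groups as in the plot of total reads. TPMT is above DMSO at all 3 times, MAP2, BMPR2 and AASS are above it at 6 and 24 h, DHRS2 is above it at 6 h and overlaps at 24 h, CAPG is above it only at 24 h, and the spread between the 3 dCBP-30 libraries is wide in MAP2, DHRS2 and BMPR2 at 24 h.

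DHRS2, a short-chain dehydrogenase that reduces dicarbonyl compounds, had its full rise in total reads by 6 h. Total reads were 36, 94 and 68 under dCBP-30 and 54, 88 and 20 under DMSO at 2 h, with overlap. They were 420, 459 and 368 against 57, 57 and 43 at 6 h and 471, 427 and 650 against 33, 92 and 42 at 24 h, without overlap at either time. The log2 fold changes were 2.76 (SE 0.36) and 2.97 (SE 0.36), and the mean level at 24 h was 1.15 times that at 6 h.

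In T>C reads DHRS2 was highest at 6 h. There were 4, 1 and 6 T>C reads under dCBP-30 and 2, 0 and 0 under DMSO at 2 h, then 21, 48 and 55 against 0, 1 and 0 at 6 h. The pooled ratio at 6 h was 106 with a 95% exact counting interval from 18.7 to 4236, since it rests on 1 DMSO read. DMSO was lowest at 6 h, with 0.0223 T>C RPM on average against 0.0513 at 2 h and 0.330 at 24 h. At 24 h the dCBP-30 libraries held 32, 4 and 0 T>C reads and the DMSO libraries 7, 9 and 0, so the groups overlapped and 88.9% of the dCBP-30 reads were in replicate 1. Without that library the log2 fold change at 24 h went from 0.95 to -1.55. The pooled share of DHRS2 reads with a conversion was 9.94% (95% exact binomial interval 8.34% to 11.7%) at 6 h under dCBP-30. It was 2.33% (1.63% to 3.21%) at 24 h, while total reads stayed high. These intervals leave out the spread between libraries. The single libraries had 5.0%, 10.5% and 14.9% at 6 h and 6.79%, 0.937% and 0% at 24 h, so the times overlapped.

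TPMT, the methyltransferase that inactivates thiopurine drugs, was the earliest of the 6 in new RNA. Its T>C reads at 2 h were 17, 42 and 25 under dCBP-30 against 0, 0 and 2 under DMSO, a pooled ratio of 39.9 with a 95% exact counting interval from 10.7 to 334.7. They were 31, 19 and 17 against 13, 3 and 4 at 6 h and 18, 12 and 31 against 9, 2 and 3 at 24 h. Every dCBP-30 library was above every DMSO library at all 3 times, and the log2 fold changes were 5.08 (SE 1.13), 1.495 (SE 0.87) and 1.82 (SE 0.90). Both DMSO reads at 2 h were in replicate 3; without it the DMSO group was at 0 and the fitted value went to 7.93, which is no bound. The later values were larger, 2.44 and 2.67, without DMSO replicate 1 of the time in question. Replicate 1 without 4sU held 8 T>C reads of TPMT in 198 reads and replicate 2 none in 181, so the DMSO counts at 2 h were no higher than this background. The pooled ratio at 2 h thus rests on the lowest of the 3 DMSO groups, with 0.0498 T>C RPM on average. DMSO had 0.464 RPM at 6 h and 0.307 RPM at 24 h, beside 1.93 RPM under dCBP-30 at 2 h.

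Total TPMT reads lagged behind. They were 177, 163 and 202 under dCBP-30 and 148, 168 and 123 under DMSO at 2 h, with overlap. At 6 h they were 408, 513 and 405 against 170, 138 and 171, and at 24 h 292, 255 and 263 against 168, 159 and 162. The log2 fold change was 1.24 (SE 0.19) at 6 h and 0.46 (SE 0.19) at 24 h. The level under dCBP-30 thus went from 12.9 ± 2.26 RPM at 2 h to 25.9 ± 2.23 at 6 h and back to 14.7 ± 1.11 at 24 h (SD, n = 3 each), a course that none of the other 5 genes had, while DMSO stayed at 10.8, 10.96 and 10.7 RPM.

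AASS, the bifunctional mitochondrial enzyme at the start of the saccharopine pathway of lysine breakdown, had the most reads behind it and the steadiest values. Total reads were 720, 605 and 737 under dCBP-30 and 636, 754 and 628 under DMSO at 2 h. They were 1738, 1908 and 1684 against 741, 823 and 732 at 6 h, and 4116, 3879 and 4074 against 780, 826 and 656 at 24 h. The groups overlapped at 2 h and were apart by a wide margin later, with log2 fold changes of -0.01 (SE 0.13), 0.99 (SE 0.12) and 2.16 (SE 0.13). From 2 to 6 h the level under dCBP-30 rose 2.11 times and from 6 to 24 h 2.10 times, to 219 ± 6.07 RPM (SD, n = 3).

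T>C reads of AASS were 49, 46 and 73 against 50, 89 and 37 at 2 h, 131, 174 and 185 against 38, 64 and 68 at 6 h and 184, 199 and 155 against 73, 61 and 70 at 24 h. The T>C level under dCBP-30 was much the same at 6 and 24 h, 9.61 ± 1.75 and 9.77 ± 1.33 RPM (SD, n = 3 each), with log2 fold changes of 1.31 (SE 0.32) and 1.13 (SE 0.31). Total reads meanwhile went on rising, so the share of AASS reads with a conversion was 9.19% (95% exact binomial interval 8.43% to 10.0%) at 6 h and 4.46% (4.10% to 4.84%) at 24 h under dCBP-30, and 7.40% (6.37% to 8.55%) and 9.02% (7.87% to 10.3%) under DMSO.

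**Figure D3:**
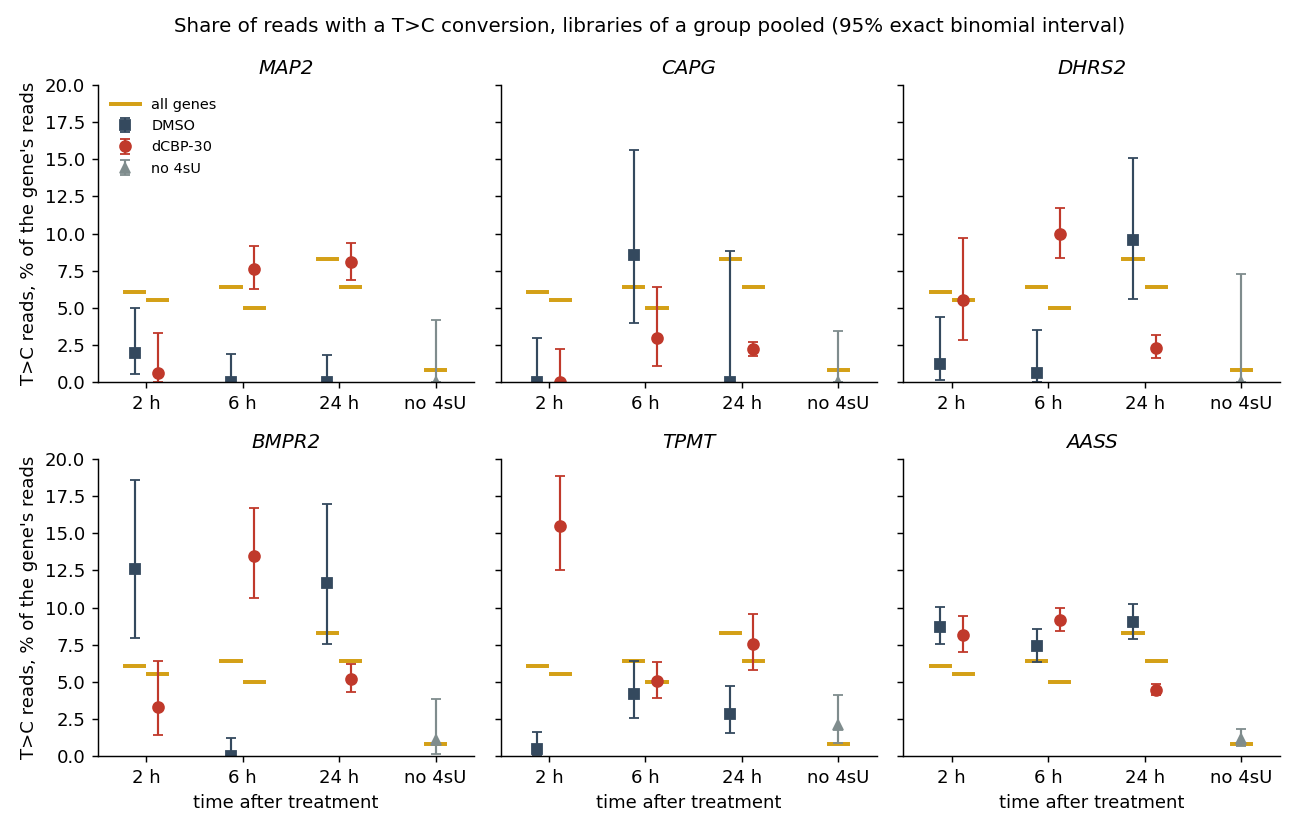
Share of each gene's reads that carried a T>C conversion, in percent, with the libraries of a group pooled and bars for the 95% exact binomial interval; short horizontal lines are the mean share over all genes of the group. Under dCBP-30 the pooled share is highest at 2 h in TPMT and at 6 h in DHRS2, BMPR2 and AASS. In AASS, BMPR2 and DHRS2 it is lower at 24 h than at 6 h. The bars leave out the spread between libraries, and in DHRS2 the single libraries of 6 and 24 h overlap.

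The T>C share without dCBP-30 is set beside the assay's background as a description with no test of the 6 genes, since low T>C reads under DMSO favoured their choice. Over all genes the T>C share was 6.93% ± 1.06 (SD, n = 9) under DMSO and 0.794% and 0.809% in the unlabelled libraries. An exact two-sided permutation test of this gave p = 0.0182, which 9 libraries against 2 cannot go below. AASS had 8.35% ± 2.15 (SD, n = 9) under DMSO and 1.75% and 0.532% without 4sU, with every DMSO library higher. BMPR2 had 15.7%, 5.80% and 19.1% at 2 h and 17.4%, 12.1% and 5.71% at 24 h, each above both unlabelled libraries (2.70% and 0%), and 0% in all 3 DMSO libraries at 6 h. For MAP2, CAPG, DHRS2 and TPMT the DMSO libraries, with 0 to 13 T>C reads each, overlapped with the unlabelled ones.

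The time course under DMSO alone was tested next. Each DMSO level also enters the contrasts on which the genes were chosen, and a low level at the time of a rise favoured the choice. The p-values of the 6 genes are thus no independent test. In T>C reads edgeR's test called none of them at 6 h or 24 h against 2 h, where it called 0% and 2.52% of 10083 genes in either direction. DESeq2 also called none. The unadjusted p was under 0.05 for 3 genes at 6 h (CAPG, BMPR2 and TPMT) and for 1 at 24 h (TPMT), and in all genes for 5.14% and 24.1%. BMPR2 showed the widest swing, with 8, 4 and 9 T>C reads at 2 h, none at 6 h and 12, 7 and 4 at 24 h, and an adjusted p of 0.619 in edgeR's test for 6 h against 2 h. The bound for BMPR2 under dCBP-30 at 6 h therefore rests on the lowest of its 3 DMSO groups.

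In total reads none of the 6 was called between 6 and 2 h by edgeR or DESeq2, where 0% of 12267 genes were; BMPR2 alone had an unadjusted p under 0.05, with a log2 change of 0.70 (SE 0.24) and an adjusted p of 0.612. At 24 h against 2 h CAPG was called lower, with a log2 change of -1.77 (SE 0.38) and an adjusted p of 0.0484 in edgeR's test, every library at 24 h below every library at 2 h, as in 8.84% of all genes; 0.0571% of all genes were called. This call was lost without TMM factors, with reads summed over transcripts and without 12 of the 18 libraries left out in turn. Low DMSO reads at 24 h also favoured the choice of CAPG, so nothing is concluded from its p-value. Against the mean of DMSO at 2 h in place of 24 h, CAPG under dCBP-30 at 24 h (76.2 RPM) stood over 3.0 ± 1.36 RPM (SD, n = 3) rather than 0.899.

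Whether the genes beside these loci changed with them was asked of the 2 nearest counted genes on each side, 24 in all, which were not chosen for how they moved. In total reads 1 of the 24 was called higher and 5 lower at 6 h, and 6 higher and 5 lower at 24 h, with medians of -0.10 and 0.29 beside 0.02 and 0.05 for all genes. In T>C reads 20 were tested, of which 0 rose and 4 fell at 6 h and 1 rose (RETSAT, retinol saturase, 2 genes from CAPG) and 7 fell at 24 h. Over all genes 7.47% rose and 8.67% fell in total reads at 6 h, and 15.0% rose and 16.1% fell at 24 h. New RNA, as T>C reads, rose in 2.36% and fell in 17.1% of all genes at 6 h, and rose in 2.18% and fell in 31.2% at 24 h.

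Close by CAPG, ELMOD3, 3001 bases away on the opposite strand and encoding an ELMO domain GTPase regulator, rose at both times, by a log2 fold change of 1.10 (SE 0.27, adjusted p = 0.00209) at 6 h and 1.16 (SE 0.27, adjusted p = 0.000614) at 24 h in edgeR's test. On its other side MAT2A, which makes S-adenosylmethionine, fell by 1.28 (SE 0.13) at 6 h on the log2 scale. The gene KDM1B, a histone H3K4 demethylase that starts 252 bases from TPMT on the opposite strand, had a log2 change of -0.17 (SE 0.38, adjusted p = 0.752) at 6 h, when TPMT stood at 1.24. FEZF1 beside AASS, a transcription factor of the developing brain, fell by 1.48 (SE 0.33) at 6 h and by 1.53 (SE 0.33) at 24 h, when AASS had risen. NOP58 beside BMPR2, a core protein of small nucleolar particles, fell by 1.47 (SE 0.17) and 2.07 (SE 0.17).

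Beside DHRS2, its relative DHRS4 fell by 1.28 (SE 0.43, adjusted p = 0.0135) at 24 h while AP1G2, a clathrin adaptor subunit, rose by 1.31 (SE 0.14). At 24 h the 3 neighbours of MAP2 that rose were PIKFYVE, which phosphorylates phosphoinositides, at 1.26 (SE 0.22), with IDH1 and KANSL1L. These latter and the following, second neighbours in most cases, were named after their values were seen: RETSAT higher at 24 h, DEK and CADPS2 lower at 24 h, and KANSL1L and CPED1 lower at 6 h. At 24 h no neighbour reached the log2 fold change of its member except near TPMT (0.46), where KIF13A, a kinesin motor, had 1.48 (SE 0.64, adjusted p = 0.0512) and KDM1B 0.64 (SE 0.37, adjusted p = 0.136); neither passed the test. RPE beside MAP2, FAM3C beside AASS and FAM117B beside BMPR2 had -0.71, -0.33 and 0.86 and did not pass either.

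**Figure D4:**
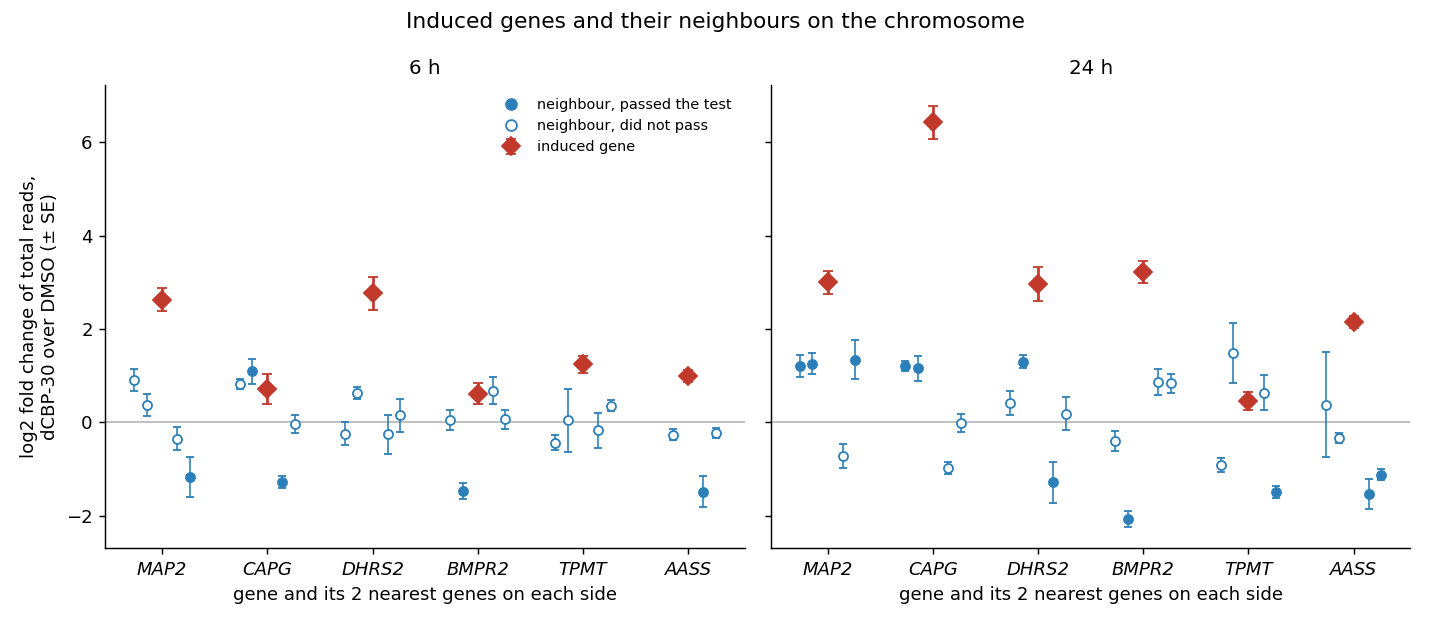
Log2 fold change of total reads, dCBP-30 over DMSO, with its standard error, for the 6 genes (diamonds) and their neighbours (circles). Neighbours are the 2 nearest genes on each side that passed the filter on low counts, filled where edgeR's test called them. CPED1 at 6 h, with no read under dCBP-30, is left out. At 24 h MAP2, CAPG, DHRS2, BMPR2 and AASS lie above all of their neighbours, whose values fall on both sides of 0.

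Relatives of each gene by family or pathway were then examined, from lists written from general knowledge with earlier results of these data known, and without the 6 genes themselves. Up to 4 genes per list are named by a rule on the size of their change; further called genes were named after their values were seen. All calls in these paragraphs are from edgeR's quasi-likelihood test over all genes.

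The list around BMPR2 held 34 receptors, SMADs, ligands and targets of the BMP and activin pathways, 25 of which were tested in total reads. At 2 h 4 fell and none rose, where 1.25% of all genes fell; at 6 h 4 rose and 5 fell (7.47% and 8.67% of all genes did), and at 24 h 9 rose and 2 fell (15.0% and 16.1% of all genes), with a median log2 fold change of 0.74 at 24 h beside 0.05 for all genes. The receptors that rose with BMPR2 in total reads at 24 h were the type I receptors BMPR1A at 1.67 (SE 0.37), ACVR1 at 1.65 (SE 0.27) and ACVR1B at 1.31 (SE 0.35), and the type II receptors ACVR2A at 1.47 (SE 0.42) and ACVR2B at 1.15 (SE 0.18). The ligand BMP4 rose by 3.18 (SE 0.51) at 6 h and 3.01 (SE 0.51) at 24 h with 0.747 and 0.612 RPM under DMSO, while BMP6, the more abundant ligand here, fell from 64.7 ± 4.57 to 6.49 ± 1.03 RPM (SD, n = 3 each) at 24 h.

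The 4 genes that fell at 2 h were SMAD7, ID2, ID3 and SMAD1. SMAD7, an inhibitory SMAD induced by the pathway, was down at all 3 times, by 2.87 (SE 0.20), 2.27 (SE 0.19) and 1.42 (SE 0.17) on the log2 scale of total reads. ID2 and ID3, helix-loop-helix inhibitors that BMP signals induce, fell at 2 and 6 h, and ID3 rose by 1.72 at 24 h. BAMBI, a decoy receptor and target of the pathway, had a log2 fold change of 1.52 (SE 0.83, adjusted p = 0.379) at 2 h. SMAD3 fell at 6 h and rose at 24 h, and TGFB1 rose at 24 h. In T>C reads, of 23 tested, 1 rose and 4 fell at 2 h (1.66% and 7.14% of all genes). At 6 h 2 rose and 4 fell (2.36% and 17.1% of all genes), and at 24 h 0 rose and 4 fell (2.18% and 31.2%). None of the receptors that rose in total reads at 24 h was thus called higher in T>C reads at that time.

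In the list of microtubule-associated proteins and tubulins around MAP2, 17 of 23 genes were tested in total reads, of which 4 rose and 2 fell at 6 h (7.47% and 8.67% of all genes) and 6 rose and 2 fell at 24 h (15.0% and 16.1% of all genes); the median at 24 h was 0.72. MAPRE3, a protein of growing microtubule ends, rose by 1.57 (SE 0.41) and 2.41 (SE 0.41). MAP1A, a large relative of MAP2 in neurons, had 3.52 ± 0.777 RPM at 6 h and 1.74 ± 0.259 RPM at 24 h under dCBP-30 (SD, n = 3 each), with no read under DMSO at 6 h and 0.106 ± 0.136 RPM (SD, n = 3) at 24 h. Of 15 tested in T>C reads, 1 rose and 4 fell at 6 h (2.36% and 17.1% of all genes), and 1 rose and 3 fell at 24 h (2.18% and 31.2%). Among the tubulins, TUBA1A rose by 2.16 (SE 0.21) at 24 h in total reads and by 2.70 (SE 0.60) at 6 h in T>C reads. TUBB2B fell at each of these times, by 1.36 (SE 0.15) at 6 h and 1.56 (SE 0.15) at 24 h in total reads.

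Around CAPG, 18 of 19 genes of the gelsolin and actin capping list were tested in total reads. At 6 h none was called, where 7.47% of all genes rose and 8.67% fell. At 24 h 3 rose (GSN, VIL1 and PFN2) and 2 fell (TMOD1 and TMSB4X), near the 15.0% and 16.1% of all genes, and the median was 0.13. GSN, gelsolin itself, went from 0.2 ± 0.184 RPM under DMSO to 20.1 ± 4.44 RPM under dCBP-30 (SD, n = 3 each), which is 6.62 (SE 0.70, adjusted p = 1.4e-08) as a log2 fold change. At 6 h GSN had 0.81 (SE 0.62, adjusted p = 0.31), so it was called, as CAPG was, at 24 h alone. PFN2, a profilin, rose by 1.5 (SE 0.31), and TMSB4X, which holds actin monomers, was called lower in T>C reads at 2 and 6 h and in total reads at 24 h.

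The short-chain dehydrogenase list around DHRS2 had 13 of 21 genes tested in total reads. None of them was called at 6 h, where 7.47% of all genes rose and 8.67% fell. At 24 h 3 rose (DHRS12, DHRS1 and DHRS7) and 2 fell (DHRS13 and DHRS4), where 15.0% and 16.1% of all genes did, with a median of -0.15. Of 10 tested in T>C reads, 1 rose and 0 fell at 2 h (1.66% and 7.14% of all genes) and at 6 h (2.36% and 17.1%). At 24 h 1 rose and 2 fell (2.18% and 31.2% of all genes). The gene that rose at 6 h was CBR3, a carbonyl reductase, at 2.91 (SE 0.88, adjusted p = 0.00969). DHRS12 rose by 2.30 (SE 0.50) and DHRS13 fell by 1.56 (SE 0.14).

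In the purine and thiopurine list around TPMT 15 of 19 genes were tested in total reads and none was called at 2 h. Of these 1 (PACSIN2) rose and 1 (MAT2A) fell at 6 h (7.47% and 8.67% of all genes), with a median of -0.12. At 24 h 0 rose and 8 fell (15.0% and 16.1% of all genes), and the median was -1.21 beside 0.05 for all genes. Of the 15 tested in T>C reads 7 fell at 6 h and 9 at 24 h, against 17.1% and 31.2% of all genes, and none rose. AHCY, which clears S-adenosylhomocysteine, fell by 1.89 (SE 0.10) at 24 h in total reads and by 4.64 (SE 0.60) in T>C reads, and APRT, which salvages adenine, by 1.69 (SE 0.11) and 3.79 (SE 0.61). IMPDH1 and IMPDH2, the enzymes on the way to guanine nucleotides, fell in T>C reads at 24 h, with log2 fold changes of -2.91 (SE 0.34) and -3.69 (SE 0.45), while those of total reads, -0.97 and -0.77, were under the cutoff.

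In the lysine breakdown list around AASS 13 of 19 genes were tested in total reads. Of these 1 (SLC25A29, a mitochondrial carrier of basic amino acids) rose at 6 h, where 7.47% of all genes did. At 24 h 1 rose (PHYKPL, 1.06, SE 0.35) and 1 fell (HADH, a hydroxyacyl-CoA dehydrogenase, by 1.34, SE 0.16), where 15.0% and 16.1% of all genes did. SLC25A29 was low throughout: at 6 h the DMSO libraries had 0.0904 ± 0.157 RPM and the dCBP-30 libraries 2.59 ± 0.245 RPM (SD, n = 3 each). DLST, a subunit of the oxoglutarate dehydrogenase complex, fell by 1.08 (SE 0.43, adjusted p = 0.0395) in T>C reads at 24 h and had 0.05 (SE 0.18) in total reads.

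The courses of the 6 genes were compared with each other and with all 12266 other genes by Pearson's r of log2(RPM + 0.5) of total reads over the 18 labelled libraries, which are points of 6 groups that share a treatment and a scaling, so r is a description. Among the 6, AASS and BMPR2 had the highest value, 0.95, then AASS and MAP2 (0.93), BMPR2 and CAPG (0.92) and MAP2 and DHRS2 (0.91). TPMT and CAPG had the lowest value, 0.28. The 3 genes most like MAP2 were TCAF1, ZNF618 and HK1 (r from 0.96 to 0.97), like DHRS2 EIF5A2, TRIM2 and LIX1L (0.95 to 0.96) and like BMPR2 RABL2B, TM7SF2 and ORAI3 (0.97). Those most like CAPG were ZBTB20, SH3GLB1 and RNASET2 (0.95), and those most like AASS were SAT2, WSB1 and MKRN1 (0.98).

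The course of TPMT, highest at 6 h, was shared most by NSUN3, NEURL1B and CHST2 (r = 0.93, 0.92 and 0.92). NSUN3, which modifies mitochondrial tRNA, had 12.3, 24.9 and 15.8 RPM at 2, 6 and 24 h under dCBP-30 and 11.2, 10.2 and 9.70 RPM under DMSO. ZBTB20, a zinc finger repressor and the gene most like CAPG, had 11.1, 9.09 and 73.3 RPM under dCBP-30 and 9.49, 10.9 and 4.04 RPM under DMSO, with its rise between 6 and 24 h and a lower DMSO level at 24 h, as in CAPG.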

How the data were processed

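SLAM-seq libraries of MM1.S cells, made from RNA 3′ ends, were analysed. The authors trimmed reads with TrimGalore, mapped them with Slamdunk to 3′ UTRs of hg38, removed multimapping reads and collapsed the output by transcript. The deposited counts (all reads, those with T>C, conversions, T positions covered) are raw and unpooled. The CPM values and the conversion fraction that the authors deposited beside them were not used in any test. Of 97466 transcripts, 89088 matched GENCODE release 44; the transcript with the highest summed count stood for each gene. Counts were fitted with edgeR 4.0.16 in R 4.3.3 (quasi-likelihood, robust, 6 groups, a minimum count of 10), with total reads and TMM factors as library sizes for both measures. A group at 0 was set to 3 counts over the group for a bound. Background T>C reads were not subtracted from any value. Libraries of a group were not copies (chi-square per degree of freedom 8.54 to 50.1). The 6 genes and the lists were chosen with earlier results of these data known. Named genes are these 6, up to 4 called genes per list with the largest change, the nearest neighbour on each side and the 3 genes most alike in total reads. Alternatives were scaling by T>C reads, no TMM factors, DESeq2 1.42.0, no filter, single time points, a replicate block, summed transcripts, an adjusted p under 0.1 and each library left out. The test was tried on simulated data, where it recovered 96.0% (T>C) and 93.5% (total) of genes changed 4-fold at 24 h, with 6.34% and 6.97% of its calls false. The simulation gave all genes the same spread, raised 200 of them and left the rest flat. Genes with as few T>C reads as CAPG or DHRS2 were not in it, so these rates do not apply to them. Promoter sequences are from RefSeq (GRCh38.p14).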

Additional observations from a re-analysis of the deposited data

Results flagged for a closer look

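BMPR2 had 0.179 T>C RPM on average under dCBP-30 at 2 h, and each of these 3 libraries was below each of the 3 DMSO libraries of that time. At 6 h and at 24 h each dCBP-30 library was above each DMSO library. The order of the groups in scaled reads was thus opposite at 2 h and at both later times. The order at 2 h rests on replicate 2 of both groups, with 4 T>C reads each, and is lost without TMM factors. At 2 h 14.6% of all genes tested had this order, and the BMPR2 values at 2 h and 24 h did not pass the cutoffs. The difference between times was not tested, because BMPR2 was chosen for its rise, and it rests on 8 T>C reads under dCBP-30 and 21 under DMSO at 2 h.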

How the results depend on the processing

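Intervals and bounds cover counting error only, and T>C reads of 0 to 86 per labelled library limit every statement on new RNA of MAP2, CAPG, BMPR2, DHRS2 and TPMT; AASS had 37 to 199. Of the 6 genes, 3 passed the cutoffs in T>C reads at 24 h, and 5 did when scaled by T>C reads, without TMM factors or with DESeq2 (2 to 4 with each library left out). In total reads at 6 h 3 passed, and 5 without TMM factors. The 1 gene called between DMSO at 24 h and 2 h, CAPG, became 0 without TMM factors, with reads summed over transcripts and with the replicate block (0 to 1 with each library left out). The counts of the other 7 comparisons of this kind stayed within 1.5 times of their value under all alternatives and left-out libraries. The replicate numbers did not pair the samples, since same-numbered libraries had correlations of their deviations between -0.33 and 0.11, and the replicate block changed no other count by over 1.5 times.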
